A study of Mus musculus with 20 samples.

Results

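The genes described here are 39 genes of the mouse lysosome: its hydrolases, the proteins of its limiting membrane, lipid-binding and activator proteins of its lumen, and a few regulators. They were listed by gene name, with earlier results of these data known, and undetected genes would have been dropped. All 39 were found by symbol among the 25700 gene identifiers of the count files, and all 39 passed the filter on low counts that left 15430 genes for testing. By role the list holds 10 cysteine cathepsins and legumain, 3 other proteases, 10 glycosidases and sulfatases, 8 genes of lipid handling, 4 membrane proteins and 4 regulators and adaptors.

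Messenger RNA was sequenced from 20 mouse libraries in 4 groups of 5. The groups were oxalate mice given alkali therapy, untreated oxalate mice, control mice given alkali therapy and untreated control mice. The series names the alkali as supplied bicarbonate and the disease as crystal nephropathy, kidney damage caused by crystals. The labels give no strain, genotype, age, dose, diet or duration, they do not name the tissue, and the word "late" in the titles of both alkali groups is not explained. That word stands in every alkali-treated title and in no untreated one, so an alkali difference cannot be told apart from what it denotes. Nothing in the labels says that libraries of a group came from separate animals, so p-values measure the spread between these libraries.

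Lysosomes are acidic organelles in which proteins, glycans and lipids delivered by endocytosis, phagocytosis and autophagy are broken down. Their hydrolases are made as precursors, most are carried there by mannose 6-phosphate receptors, and they work at the low pH that a proton pump maintains. Transcription factors of the MiT/TFE family (TFEB, TFE3, TFEC and MITF) bind an E-box in the promoters of many lysosomal genes. In the kidney, proximal tubule cells are rich in lysosomes because they take up filtered protein, and macrophages that enter damaged tissue carry a large lysosomal system of their own.

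Total counts per library lay between 25547840 and 39550689, and every member had reads in every library. The kidney markers in the libraries included the 15 proximal tubule genes of the marker list, whose summed level was at least 19492 CPM in every library. CPM are a gene's counts scaled to a common library size, here with the trimmed mean of M values (TMM), a correction for RNA composition whose factors ran from 0.867 to 1.28. The oxalate libraries were spread far more widely than the controls. Untreated oxalate library 40 and alkali-treated oxalate library 2 lay at opposite ends of that spread. Where leaving out either ended a member's call or moved its called change by over 1.5 times, this is stated beside the result. Calls of cell-type markers and of genes from other lists were not checked gene by gene in this way.

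By length-normalised level (CPM per kilobase of merged exons), Psap was the most abundant of the 39 genes in each of the 4 groups. Psap encodes prosaposin, the precursor of the saposins that present sphingolipids to their hydrolases. Lamp1, a heavily glycosylated membrane protein, Ctsd, the main aspartic protease of the lysosome, and Lgmn, the asparaginyl endopeptidase legumain, took ranks 2 to 4 in each group. Ctss was the gene whose rank moved furthest. It ranked 9 in alkali-treated oxalate libraries, 5 in untreated oxalate libraries, 30 in alkali-treated control libraries and 29 in untreated control libraries. The summed level of the 39 genes was 11338 ± 528 CPM in alkali-treated oxalate, 12827 ± 932 CPM in untreated oxalate, 11944 ± 322 CPM in alkali-treated control and 11753 ± 1008 CPM in untreated control libraries (SD, n = 5 each). With TMM the ranges of untreated oxalate and untreated control libraries overlapped, while single genes moved in both directions. With total counts the sum was 11820 to 17957 CPM in untreated oxalate libraries and 10091 to 11456 CPM in untreated control libraries, without overlap.

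MiT/TFE factors recognise the E-box letters CACGTG, and most of all their longer form TCACGTGA. Promoter stretches are printed for the called members with this longer form and for the members with the largest change. Those of other called members are not printed, among them Npc2, Hexa and Ctsc, whose promoters hold no CACGTG. The sequences are RefSeq promoters of build GRCm38.p6, 250 bases before to 50 bases after each gene's start. The table holds 34 of the 39 members in 41 promoters. Of these 41 promoters 26.8% hold CACGTG on either strand, against 7.15% of all 32851 promoters, and 9.76% hold TCACGTGA, against 0.974% of all. The 11 members with CACGTG are Ctsa, Ctsd, Ctsf, Ctsl, Gaa, Gla, Glb1, Lamp1, Lgmn, Mcoln1 and Naglu, and the 4 with TCACGTGA, which contains CACGTG, are Ctsa, Ctsd, Gla and Mcoln1. Ctsd (chr7:142387908-142387937, minus strand), Gla (chrX:134601126-134601255, minus strand) and Mcoln1 (chr8:3500462-3500491, plus strand) follow with the E-box in capitals, 5′ to 3′ along the gene.
Ctsd: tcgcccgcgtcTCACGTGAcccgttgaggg
Gla: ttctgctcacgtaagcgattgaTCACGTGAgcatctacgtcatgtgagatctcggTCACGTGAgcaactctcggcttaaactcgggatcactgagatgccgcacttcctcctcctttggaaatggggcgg
Mcoln1: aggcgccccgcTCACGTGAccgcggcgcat
The Gla stretch holds the longer E-box at 2 places. The other pair of printed stretches belongs to Ctss (chr3:95526636-95526785) and Ctsk (chr3:95499060-95499209), the 2 members with the largest change, which lie on the plus strand of chromosome 3 with 17423 bases between them. Neither of their promoters holds CACGTG. The capitals in Ctss mark the letters GAAA, any 2 bases and GAAA again, the form of an interferon-response repeat, which occur on either strand in 3.44% of all promoters and, among the members, in Ctso, Ctss and Lamp1. It occurs in 7.32% of the 41 member promoters. That motif and GAGGAAGT, the form of an ETS factor site, were chosen after the sequences had been read, and the Ctsk stretch holds no match to either. GAGGAAGT, not marked in capitals, occurs in 9.76% of the 41 member promoters, those of Ctsc, Ctss, Gla and Gusb, against 3.20% of all.
Ctss: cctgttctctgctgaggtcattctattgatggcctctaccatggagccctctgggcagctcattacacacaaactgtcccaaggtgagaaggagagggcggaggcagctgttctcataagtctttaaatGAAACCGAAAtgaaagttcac
Ctsk: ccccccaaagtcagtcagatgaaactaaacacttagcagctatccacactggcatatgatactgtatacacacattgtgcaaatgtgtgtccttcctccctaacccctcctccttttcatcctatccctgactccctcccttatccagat
A match is a description of these letters and not of a bound site.

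Untreated oxalate mice were first compared with untreated control mice, to ask what the crystal disease did to the lysosomal genes. The cathepsin genes Ctss (29.0-fold), Ctsk (14.8-fold) and Ctsc rose most, followed by the glycosidase genes Hexa and Gla, and the genes with the largest falls were the sulfatase Galns, at 0.565 of its control level, and the glycosidases Glb1 and Neu1. Of the 39 members, 13 were called higher and 8 lower at an adjusted p under 0.05, and 18 passed in neither direction. Over all 15430 genes tested, 26.4% were called higher and 23.1% lower, so calls were common throughout. The median log2 fold change of the members was −0.05, beside 0.00 over all genes. The groups did not overlap in CPM for 17 of the 39 members, and the same held for 33.8% of all genes. With each library left out in turn, 20 to 26 members were called.

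**Figure D1:**
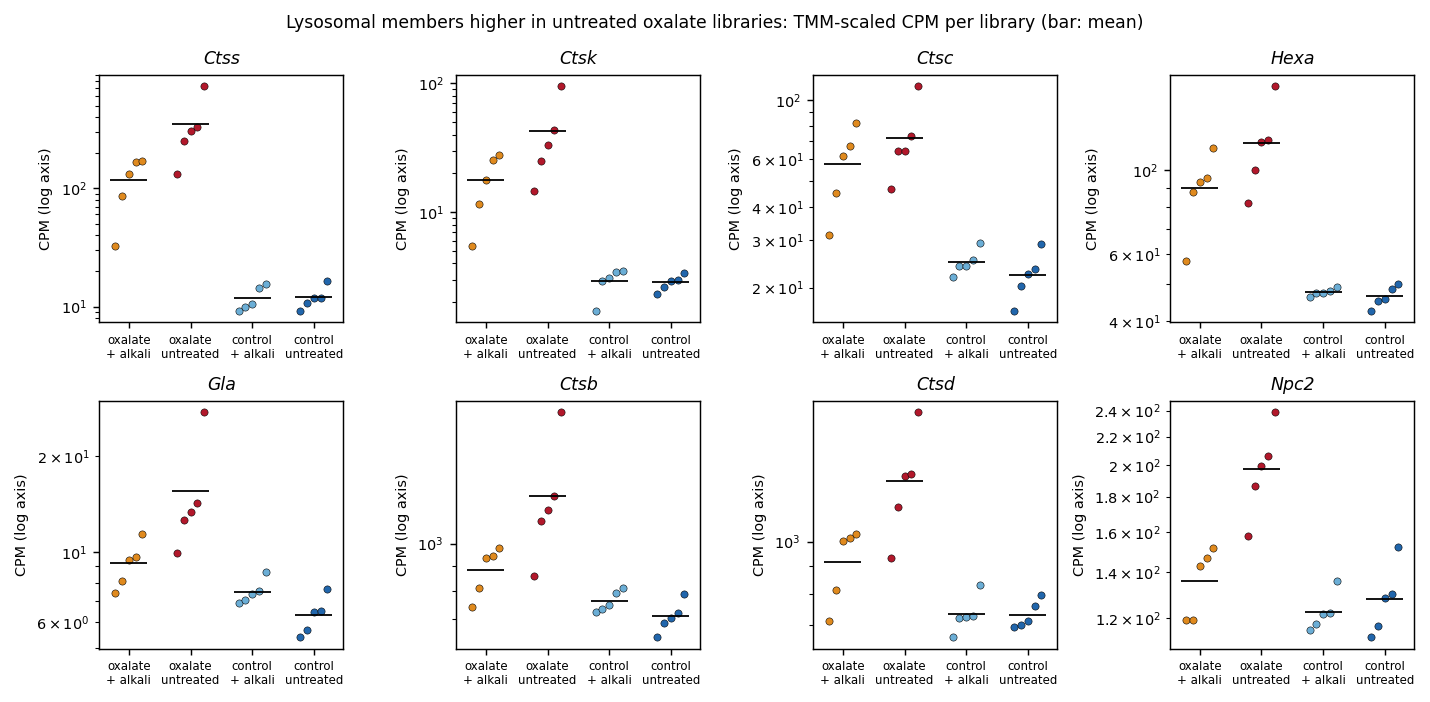
TMM-scaled CPM (log axis) of 8 members called higher in untreated oxalate libraries, 1 point per library, with bars at the group means, 5 libraries per group. For Ctss the 5 untreated oxalate libraries sit between 132 and 734 CPM, above all alkali-treated control and untreated control libraries, and the alkali-treated oxalate libraries run from 32.4 to 168 CPM.

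Of the 10 cysteine cathepsins and legumain, 6 were called higher and 1 lower. Cathepsin S, an elastin-degrading protease that also trims the invariant chain in antigen-presenting cells, showed the largest change. Ctss had 328, 303, 132, 250 and 734 CPM in untreated oxalate libraries 12, 3, 32, 39 and 40, against 10.8, 16.6, 9.17, 11.8 and 11.9 CPM in untreated control libraries 13, 19, 26, 35 and 9. The lowest oxalate library was far above the highest control library, and library 40 stood above the other oxalate libraries. Its log2 fold change was 4.86 ± 0.46 (SE; adjusted p = 4.94e-07, edgeR quasi-likelihood test), and 4.35 without library 40.

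Cathepsin K, the collagen-degrading protease best known from osteoclasts, followed. Ctsk had 43.6, 33.3, 14.5, 24.9 and 95.8 CPM in untreated oxalate libraries 12, 3, 32, 39 and 40, against 2.33, 2.92, 2.98, 2.64 and 3.39 CPM in untreated control libraries 13, 19, 26, 35 and 9. The groups were again well apart, with library 40 high and library 32 low. The log2 fold change was 3.89 ± 0.47 (adjusted p = 3.41e-06), and 3.30 without library 40 (adjusted p = 4.46e-06). Markers of multinucleated giant cells and osteoclasts stood beside it at low levels. Dcstamp, a fusion protein of these cells, had 1.31 to 8.28 CPM in untreated oxalate libraries and at most 0.18 CPM in untreated control libraries, while its partner Ocstamp stayed at or below 0.37 CPM in all 20 libraries. Of 7 such markers 5 were tested and 4 of these were called higher, and the summed level of the 7 was 71.7 to 90.1 CPM in untreated oxalate and 58.3 to 72.2 CPM in untreated control libraries. Their part in the Ctsk difference was not tested.

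Ctsc, the dipeptidyl peptidase that activates serine proteases of granules, had 73.4, 64.5, 46.5, 64.6 and 113 CPM in the untreated oxalate libraries in the same order, against 20.3, 29.1, 16.4, 22.4 and 23.4 CPM in the untreated controls. All oxalate libraries lay above all controls, and the log2 fold change was 1.70 ± 0.23 (adjusted p = 1.05e-05). Ctsb, an abundant endo- and exopeptidase, averaged 1250 ± 371 CPM in untreated oxalate libraries and 709 ± 53.6 CPM in untreated control libraries (SD, n = 5 each), and its groups did not overlap (log2 fold change 0.82 ± 0.15, adjusted p = 0.000206). Without library 40 the log2 fold change was 1.44 for Ctsc and 0.59 for Ctsb, both still called. Ctsz, a carboxypeptidase, and Ctso rose by less, with log2 fold changes of 0.44 ± 0.12 and 0.28 ± 0.08, and their groups overlapped. Without library 40 the log2 fold change of Ctsz was 0.28 (adjusted p = 0.040), and Ctso was no longer called (0.17, adjusted p = 0.0845).

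Not all cathepsins took this direction. Ctsh, an aminopeptidase, fell by 0.27 ± 0.10 on the log2 scale (adjusted p = 0.0272), with 181 to 216 CPM in untreated oxalate libraries against 206 to 263 CPM in untreated control libraries. That call was lost without untreated oxalate library 12 (adjusted p = 0.0603) or 3 (0.056) and without untreated control library 13 (0.0734) or 35 (0.0737), and under scaling by total counts the sign turned, to 0.03. Ctsl, Lgmn and Ctsf passed the test in neither direction, with log2 fold changes of −0.05, −0.09 and −0.25 (adjusted p = 0.689, 0.611 and 0.0545). Ctsl, the broad endopeptidase of proximal tubule lysosomes, averaged 610 ± 32.5 CPM in untreated oxalate and 631 ± 82.1 CPM in untreated control libraries. Under total-count scaling it was called higher instead (log2 fold change 0.26, adjusted p = 0.0153). The median of all genes was 0.30 on that scaling, above this value.

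Among the other proteases, Ctsd had 1333, 1325, 933, 1161 and 1739 CPM in untreated oxalate libraries 12, 3, 32, 39 and 40, against 712, 701, 694, 795 and 759 CPM in untreated control libraries 13, 19, 26, 35 and 9. The groups did not overlap, and the log2 fold change was 0.83 ± 0.14 (adjusted p = 0.000105). The gene shares 808 exonic bases with the same-strand gene Gm49369, whose log2 fold change was 0.82 ± 0.15, so how reads were shared between this pair is uncertain. Exons of 8 other members (Ctsa, Ctsb, Ctsz, Hexa, Lamp1, Npc1, Ppt1 and Sqstm1) overlap a gene on the opposite strand, and the strand setting of the counting is not given in the sources used here. Tpp1, the tripeptidyl peptidase that removes N-terminal tripeptides, moved the other way, with 218 to 237 CPM in untreated oxalate libraries and 258 to 304 CPM in untreated control libraries. Its log2 fold change was −0.31 ± 0.08 (adjusted p = 0.00244), which under total-count scaling shrank to −0.01. Ctsa, a carboxypeptidase that also stabilises Glb1 and Neu1 in a complex, did not pass (0.02 ± 0.11).

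The 10 glycosidases and sulfatases split, with 2 higher and 4 lower. Hexa, the alpha subunit of beta-hexosaminidase, had 119, 120, 82.2, 100 and 167 CPM in the untreated oxalate libraries, against 45.9, 48.8, 42.6, 50.2 and 45.3 CPM in the untreated controls. The lowest oxalate value exceeded every control value, and the log2 fold change was 1.34 ± 0.16 (adjusted p = 2.48e-06). Gla, alpha-galactosidase A, which removes galactose from globotriaosylceramide, had 14.2, 13.3, 9.90, 12.6 and 27.6 CPM in the untreated oxalate libraries against 7.66, 6.45, 5.68, 6.53 and 5.39 CPM in the untreated controls. The groups did not overlap, and library 40 stood well above the other oxalate libraries (log2 fold change 1.30 ± 0.20, adjusted p = 4.95e-05). Without it the log2 fold change was 0.94 (adjusted p = 3.17e-05).

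The 4 that fell were Galns, Glb1, Neu1 and Naglu, each without overlap between the groups. Galns, which removes sulfate from keratan sulfate and chondroitin 6-sulfate, had 134, 106, 139, 108 and 74.3 CPM in the untreated oxalate libraries, against 185, 167, 189, 226 and 224 CPM in the untreated controls. Its lowest value came from library 40, the library in which the risen members were highest, and the log2 fold change was −0.82 ± 0.17 (adjusted p = 0.000587). Glb1, lysosomal beta-galactosidase, averaged 138 ± 22.8 CPM in untreated oxalate and 219 ± 24.1 CPM in untreated control libraries (log2 fold change −0.67 ± 0.13, adjusted p = 0.000448). Its exons overlap those of the same-strand gene Tmppe, which had a log2 fold change of −0.66 ± 0.21. Neu1, the sialidase that works in complex with Ctsa, fell by 0.63 ± 0.17 on the log2 scale, and Naglu, which acts on heparan sulfate, by 0.37 ± 0.09. Gusb, Man2b1, Manba and Gaa passed in neither direction, with log2 fold changes between −0.22 and 0.12.

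**Figure D2:**
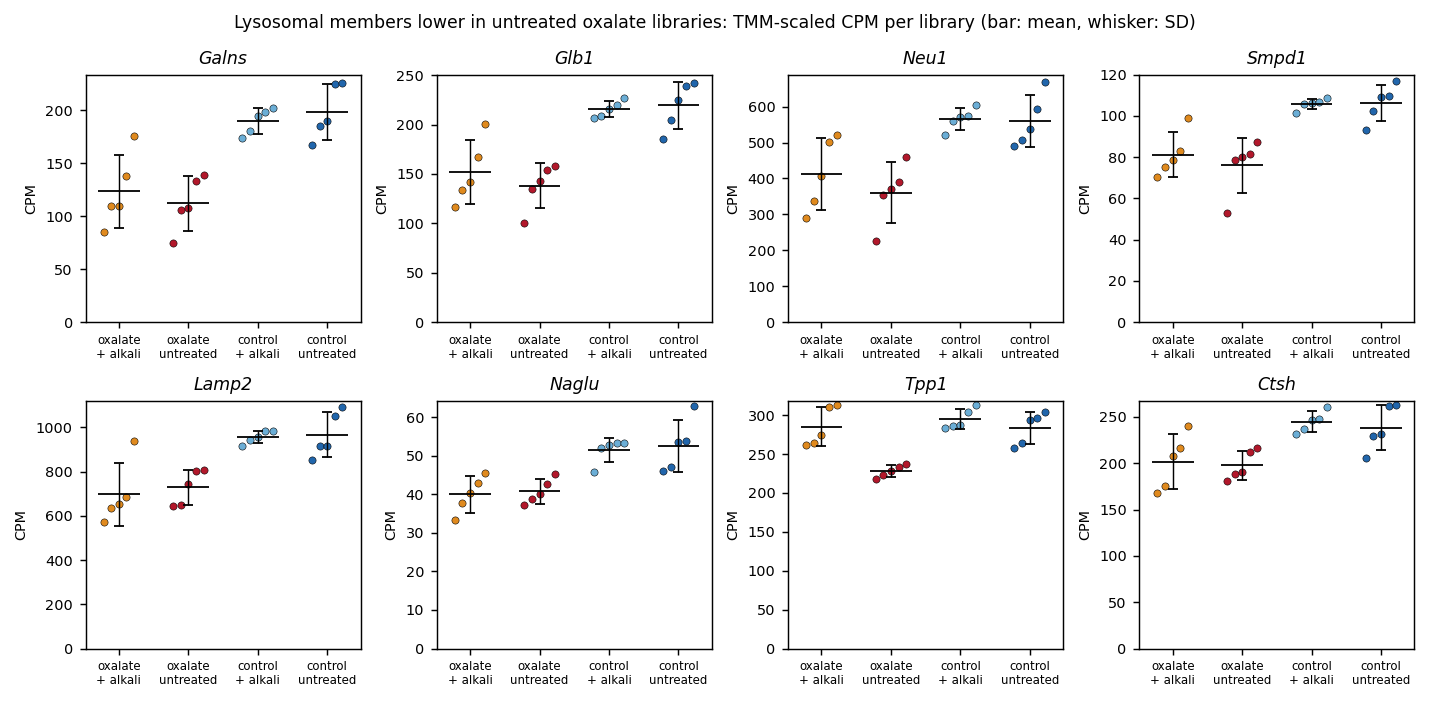
TMM-scaled CPM (linear axis from 0) of the 8 members called lower in untreated oxalate libraries, 1 point per library, with bars at the means and whiskers of 1 SD, 5 libraries per group. For Tpp1 the alkali-treated oxalate libraries reach 262 to 313 CPM, above the 218 to 237 CPM of the untreated oxalate libraries, while for Galns, Glb1 and Neu1 the ranges of both oxalate groups overlap.

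Of 8 genes of lipid handling, 2 were called higher (25%) and 1 lower (12.5%), shares at or under those of all genes. Npc2, the small luminal protein that hands cholesterol to Npc1, had 199, 206, 158, 186 and 239 CPM in untreated oxalate libraries against 130, 117, 112, 152 and 128 CPM in untreated control libraries (log2 fold change 0.63 ± 0.11, adjusted p = 0.000106). The groups were separate by a small margin. Npc1, the membrane transporter that receives this cholesterol, was called higher (0.43 ± 0.12, adjusted p = 0.00793), but its groups overlapped, and without library 40 the log2 fold change was 0.20 (adjusted p = 0.0531). Smpd1, acid sphingomyelinase, fell by 0.48 ± 0.11 on the log2 scale (adjusted p = 0.00141), with 52.9 to 87.4 CPM in untreated oxalate libraries against 93.4 to 117 CPM in untreated control libraries.

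The other 5 lipid genes passed in neither direction. Psap (0.27 ± 0.12, adjusted p = 0.0607) and Asah1, acid ceramidase (0.21 ± 0.09, adjusted p = 0.0661), lay closest to the threshold on the positive side, and Gm2a, the activator protein that Hexa needs to degrade ganglioside GM2 (−0.20 ± 0.09, adjusted p = 0.0813), on the negative side. Lipa, acid lipase, and Ppt1, a thioesterase that removes palmitate from proteins, had log2 fold changes of −0.15 and −0.13. Under total-count scaling Psap (0.59, adjusted p = 0.00114), Asah1 (0.53, adjusted p = 0.00111) and Ppt1, whose sign turned (0.18, adjusted p = 0.0454), were called higher. The median of all genes was 0.30 there, above the value of Ppt1.

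Of the 4 membrane proteins, Scarb2 and Lamp2 went opposite ways. Scarb2, the receptor LIMP-2 that carries glucocerebrosidase to the lysosome, had 71.3 to 119 CPM in untreated oxalate libraries against 52.8 to 57.8 CPM in untreated control libraries, without overlap (log2 fold change 0.78 ± 0.12, adjusted p = 6.04e-05). Lamp2, needed for fusion of autophagosomes with lysosomes, had 644 to 807 CPM in untreated oxalate libraries against 852 to 1093 CPM in untreated control libraries, likewise without overlap (−0.41 ± 0.12, adjusted p = 0.00937). Lamp1 and Mcoln1, the calcium channel mucolipin 1, did not pass (−0.19 ± 0.10 and −0.10 ± 0.07). Among the regulators only Mitf was called (0.62 ± 0.14, adjusted p = 0.00131), with 18.5 to 35.3 CPM in untreated oxalate libraries against 12.7 to 18.2 CPM in untreated control libraries. Without library 40 its log2 fold change was 0.40 (adjusted p = 0.0057). Tfeb (0.26 ± 0.16), Tfec (−0.38 ± 0.20) and Sqstm1, the autophagy receptor p62 (−0.25 ± 0.12), did not pass.

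The same libraries set the extremes for nearly all of these genes. All 13 risen members were highest in untreated oxalate library 40 and lowest in library 32. Of the 8 fallen members, 7 were lowest in library 40, and 5 were highest in library 32. The summed level of 19 macrophage and monocyte markers moved with this order, with 3661 CPM in library 40 and 939 CPM in library 32 among untreated oxalate libraries, against 165 to 220 CPM in untreated control libraries. Of these markers 18 of 19 were called higher. The summed level of 15 proximal tubule markers ran the opposite way, with 19492 CPM in library 40 and 51055 CPM in library 32, against 61453 to 72469 CPM in untreated control libraries, and 14 of 15 were called lower. None of these macrophage and proximal tubule markers was at 0 throughout a group. Single genes weighed heavily in the sums: in library 40 Lyz2 alone had 1879 CPM of the macrophage sum and Kap 11290 CPM of the proximal tubule sum. Other cell types moved too. All 7 fibroblast markers, all 8 T and NK cell markers, all 8 tubular injury markers and all 5 podocyte markers were called higher. The fibroblast sum was highest in library 40 (1810 CPM) and lowest in library 32 (467 CPM), against 152 to 207 CPM in untreated control libraries. The T and NK cell sum, 104 CPM in library 40 and 31.8 CPM in library 32, stood against 3.73 to 7.42 CPM, and the injury sum was 3260 to 5407 CPM against 825 to 1050 CPM in untreated control libraries. In library 40 Il7r alone had 66.3 CPM of the T and NK cell sum. Spp1 alone had 3880 CPM of the injury sum there, which was 5233 CPM. The part of any of these cell types in the lysosomal changes was not tested, and in bulk RNA fewer cells of a type and less RNA per cell cannot be told apart.

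**Figure D3:**
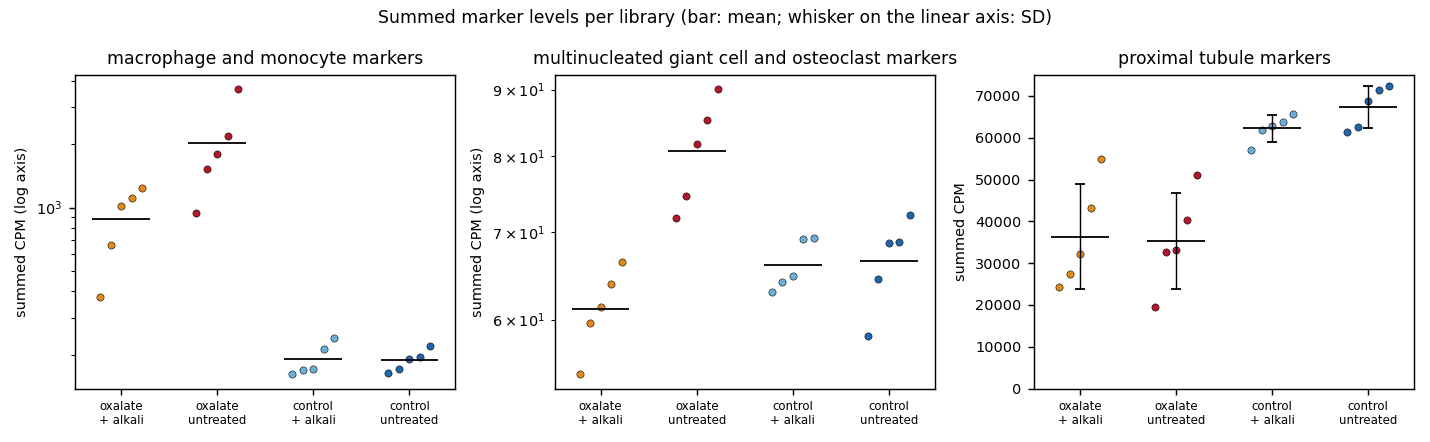
Summed TMM-scaled CPM per library of 19 macrophage and monocyte markers (log axis), 7 giant cell and osteoclast markers (log axis) and 15 proximal tubule markers (linear axis, whiskers of 1 SD), with bars at the means. Macrophage markers run from 378 to 1237 CPM in alkali-treated oxalate and from 939 to 3661 CPM in untreated oxalate libraries, and from 162 to 240 CPM in alkali-treated control and 165 to 220 CPM in untreated control libraries.

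The choice of scaling moved part of these calls. Total-count scaling moved the median of all genes by 0.30 in this comparison and by 0.21 in the comparison of both alkali-treated groups. With TMM the all-gene median was 0.00 and 0.02 in these comparisons, and on total counts it was 0.30 and 0.24. Changes on total counts are printed without subtracting this median. On total counts 20 members were higher and 4 lower, and over all genes 85.1% of calls were higher against 53.3% with TMM. Galns, Glb1, Neu1 and Smpd1 kept a lower call there, while the calls of Tpp1, Naglu and Lamp2 were lost and the 13 risen members stayed called. By role, total counts gave 7 higher and 0 lower among cathepsins and legumain and 3 higher and 3 lower among glycosidases and sulfatases.

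**Figure D4:**
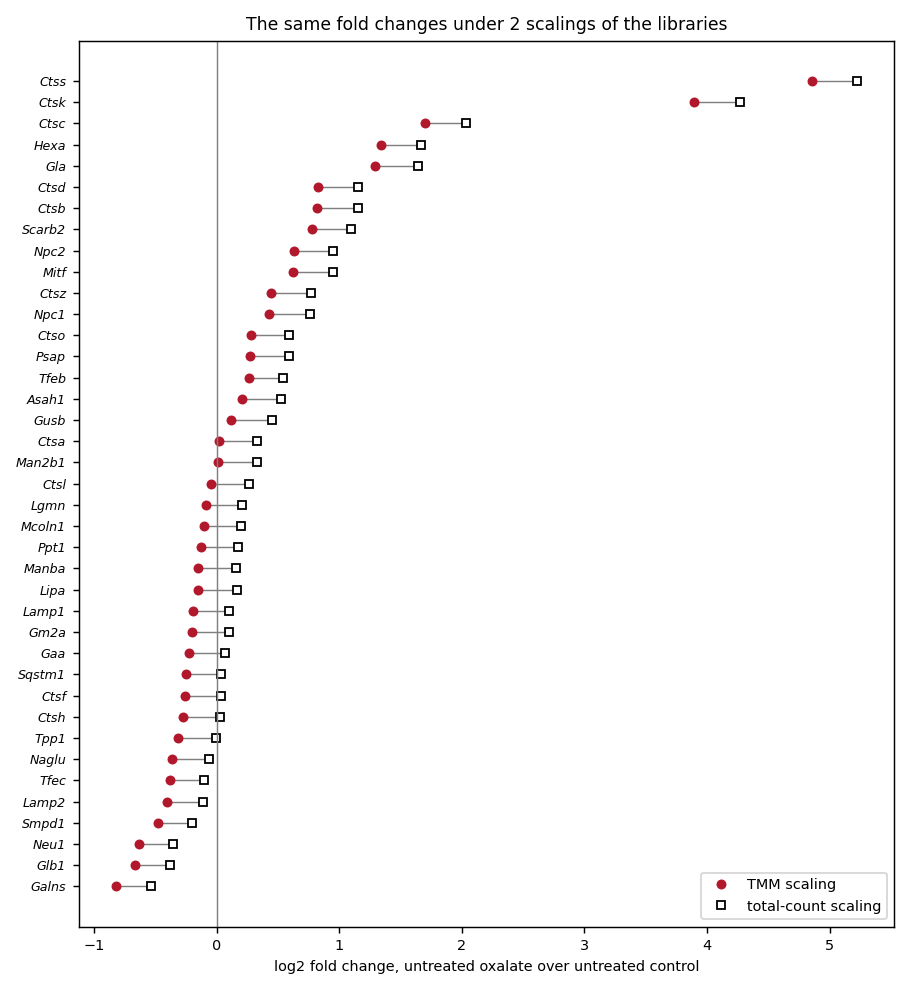
Log2 fold change of untreated oxalate over untreated control libraries for the 39 members under TMM scaling (filled circles) and total-count scaling (open squares), joined by a line for each gene. Every gene shifts to the right on total counts, and 12 genes cross 0, Ctsh, Ctsl and Ppt1 among them, while Ctss and Ctsk stay far above it.

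Oxalate mice on alkali were then compared with control mice on alkali, 2 groups that share no library with the comparison above. Ctss, Ctsk, Ctsc and Hexa again stood highest. In this comparison 6 members were called higher and 10 lower, where 23.4% of all genes were higher and 17.1% lower, and the member median was −0.03 against 0.02 over all genes. The groups did not overlap for 13 members, beside 16.3% of all genes. All 6 risen members (Ctss, Hexa, Ctsk, Ctsc, Scarb2 and Ctso) had also been called higher without alkali, which is 46.2% of the 13 called there and 100% of those called here. How often calls were shared in this way was not computed over all genes, so these shares are not a result about the members.

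Ctss had 32.4, 85.3, 165, 131 and 168 CPM in alkali-treated oxalate libraries 2, 30, 33, 5 and 8, against 15.5, 10.4, 9.23, 14.3 and 9.94 CPM in alkali-treated control libraries 1, 27, 37, 4 and 7. Library 2 was the closest to the controls but still above all of them, and the log2 fold change was 3.29 ± 0.43 (adjusted p = 5.35e-05). Ctsk had 5.48, 11.6, 25.5, 17.7 and 27.9 CPM in the alkali-treated oxalate libraries against 3.49, 3.09, 2.94, 3.41 and 1.71 CPM in the alkali-treated controls (log2 fold change 2.59 ± 0.45, adjusted p = 0.000441). The groups were separate here as well. Ctsc and Hexa rose by 1.20 ± 0.23 and 0.91 ± 0.16 on the log2 scale. Scarb2 (0.41 ± 0.12, adjusted p = 0.0142) lost its call without alkali-treated oxalate library 33 (adjusted p = 0.0549), and the small change of Ctso (0.22 ± 0.08, adjusted p = 0.0381) lost its call in 9 of 20 fits that each left out 1 library, with an adjusted p of up to 0.106. These were alkali-treated oxalate libraries 33, 5 and 8, untreated oxalate library 32 and all 5 alkali-treated control libraries.

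The 10 fallen members were Naglu, Glb1, Lamp2, Galns, Gm2a, Manba, Smpd1, Ctsh, Ctsl and Neu1, and 7 of them had been called lower without alkali. That is 70% of the members called lower here and 87.5% of the 8 called there, shares likewise not computed over all genes. Galns had 175, 137, 85.2, 109 and 109 CPM in alkali-treated oxalate libraries against 202, 180, 198, 195 and 174 CPM in alkali-treated control libraries. Library 2 reached the control range, and the log2 fold change was −0.62 ± 0.17 (adjusted p = 0.00838). Glb1 fell by 0.51 ± 0.13, Lamp2 by 0.46 ± 0.12 and Smpd1 by 0.38 ± 0.11 on the log2 scale. Gm2a (−0.34 ± 0.09, adjusted p = 0.00978) and Manba, beta-mannosidase (−0.25 ± 0.07, adjusted p = 0.0103), were called here. Of the 20 fits without 1 library, 5 lost Ctsh, 6 lost Neu1 and 8 lost Ctsl. Leaving out alkali-treated oxalate library 33 or 5 or alkali-treated control library 1 or 37 ended all 3 calls, and without library 33 the adjusted p was 0.0915 for Ctsh, 0.100 for Neu1 and 0.0708 for Ctsl. Ctsh was also lost without alkali-treated control library 27, Neu1 without alkali-treated oxalate library 8 or alkali-treated control library 7, and Ctsl without either of these or alkali-treated oxalate library 30 or alkali-treated control library 27. On total counts 12 members were higher and 3 lower, and 85.6% of the calls over all genes were higher against 57.8% with TMM. The lower calls of Glb1, Galns and Lamp2 remained on total counts. Those of Naglu, Gm2a (log2 fold change −0.13, adjusted p = 0.139), Manba (−0.04, adjusted p = 0.676), Smpd1, Ctsh, Ctsl and Neu1 were lost. Without the 6 libraries in which the fat-cell gene Adipoq exceeded 1 CPM (alkali-treated oxalate 33, untreated oxalate 32, alkali-treated control 1 and 4, untreated control 26 and 9), a setting chosen after seeing the data, 5 members were called in place of 16.

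Of the risen members of the untreated comparison, 7 (Ctsb, Ctsz, Ctsd, Gla, Npc1, Npc2 and Mitf) did not pass on alkali, and neither did the fallen Tpp1. Their log2 fold changes on alkali lay between 0.09 for Ctsz and 0.32 for Ctsd, with −0.05 for Tpp1. Without alkali-treated oxalate library 2, Ctsd was called (0.39, adjusted p = 0.0211). Under total-count scaling Ctsd (log2 fold change 0.55, adjusted p = 0.0189) and Mitf (0.51, adjusted p = 0.0368) were called higher on alkali. So were Npc1 (0.45, adjusted p = 0.0377) and Npc2 (0.37, adjusted p = 0.0376), while Ctsb, Ctsz and Gla were not called there either. Whether these changes differ between mice with and without alkali was tested by the interaction, in which none of them passed.

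**Figure D5:**
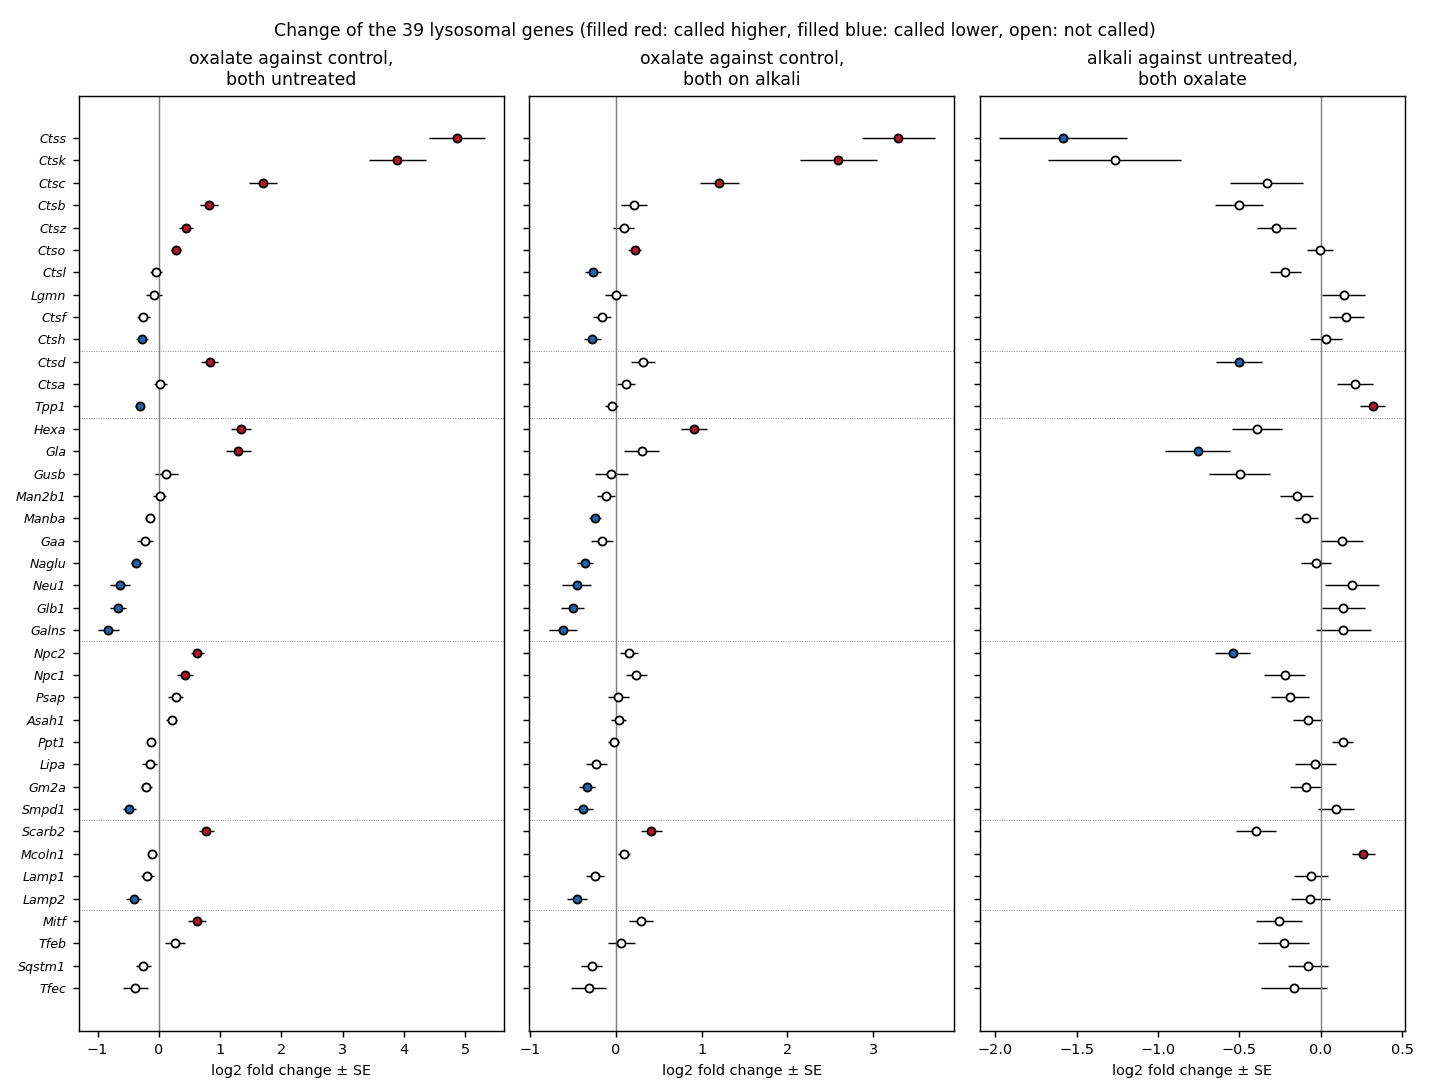
Log2 fold change ± SE of the 39 members in 3 comparisons, grouped by role and ordered within a role by the untreated oxalate change. Red and blue points are called higher and lower. The scales of the horizontal axes differ between panels, and in the right panel Ctss, Ctsd, Gla and Npc2 are called lower while Tpp1 and Mcoln1 are called higher.

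Within oxalate mice, alkali-treated libraries were compared with untreated libraries, to ask how the lysosomal genes of diseased mice differed between them. Bicarbonate and whatever "late" denotes cannot be told apart in this comparison. The untreated oxalate libraries also served in the comparison with untreated controls, so their own spread enters both. Ctss was lower with alkali, at 0.334 of its untreated level, together with Gla, Npc2 and Ctsd, and Tpp1 and Mcoln1 were higher. That makes 2 members called higher and 4 lower of 39, where 1.76% of all genes were called higher and 2.33% lower. The member median was −0.09 and that of all genes 0.01. Groups did not overlap for 4 members, Tpp1, Mcoln1 and Ppt1 on the higher side and Npc2 on the lower, beside 3.52% of all genes.

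Npc2 had 119, 119, 143, 152 and 147 CPM in alkali-treated oxalate libraries 2, 30, 33, 5 and 8, against 199, 206, 158, 186 and 239 CPM in untreated oxalate libraries 12, 3, 32, 39 and 40. Every alkali-treated library was below every untreated one. The log2 fold change was −0.54 ± 0.11 (adjusted p = 0.00928), the smallest adjusted p among the members. This call was the only one of the 6 to remain in all 20 fits that left out 1 library. All of these fits also held control libraries, so the spread of the control groups entered these p-values too. Fitted by edgeR to the oxalate libraries alone, Npc2 was not called (adjusted p = 0.12).

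Ctss had 32.4, 85.3, 165, 131 and 168 CPM in the alkali-treated oxalate libraries, against 328, 303, 132, 250 and 734 CPM in the untreated oxalate libraries. Untreated library 32 lay inside the alkali-treated range, so the groups overlapped. The log2 fold change was −1.58 ± 0.39 (adjusted p = 0.0289), and the call did not survive the omission of alkali-treated oxalate library 30 (adjusted p = 0.0859) or of library 12 (0.0666) or 40 (0.0996) of the untreated oxalate group. Gla had 7.44, 8.11, 11.4, 9.61 and 9.44 CPM in the alkali-treated oxalate libraries, against 14.2, 13.3, 9.90, 12.6 and 27.6 CPM in the untreated oxalate libraries. Its log2 fold change was −0.76 ± 0.20 (adjusted p = 0.0375) and shrank to −0.44 without library 40 (adjusted p = 0.0882). Leaving out alkali-treated oxalate library 2 (0.0699), 30 (0.103), 5 (0.0551) or 8 (0.0668) ended the call too, as did leaving out library 12 (0.0734) or 3 (0.0509) of the untreated oxalate group.

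Ctsd had 714, 812, 1033, 1002 and 1016 CPM in the alkali-treated oxalate libraries, against 1333, 1325, 933, 1161 and 1739 CPM in the untreated oxalate libraries. The ranges overlapped through library 32, and the log2 fold change of −0.50 ± 0.14 stood just inside the threshold (adjusted p = 0.0454). It lay outside it in 17 of the 20 fits, in all but those that omitted library 33 of the alkali-treated oxalate group or library 32 or 39 of the untreated oxalate group, with an adjusted p of up to 0.125. Tpp1 had 275, 313, 262, 264 and 310 CPM with alkali, against 224, 237, 234, 229 and 218 CPM without. The 2 oxalate groups were clearly apart, and the log2 fold change was 0.32 ± 0.08 (adjusted p = 0.0258), which did not pass in the fits without alkali-treated oxalate library 30 (adjusted p = 0.0801), alkali-treated oxalate library 8 (0.0625) or untreated oxalate library 12 (0.073).

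Mcoln1 had 64.9, 80.2, 64.5, 68.9 and 82.0 CPM in alkali-treated oxalate libraries, against 59.0, 64.1, 60.4, 58.5 and 58.7 CPM in untreated oxalate libraries. The groups nearly touched, at 64.5 and 64.1 CPM. The log2 fold change was 0.26 ± 0.07 (adjusted p = 0.0416), and 15 of the 20 fits lost the call, with an adjusted p between 0.0501 and 0.124, in all but those that omitted alkali-treated oxalate library 2 or 33, untreated oxalate library 32, alkali-treated control library 4 or untreated control library 13. Gla, Ctsd and Mcoln1, whose E-boxes are printed above, therefore differed in direction, with Gla and Ctsd lower and Mcoln1 higher. Ctsa, the remaining member with TCACGTGA, did not pass (0.21 ± 0.11, adjusted p = 0.288).

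Several members came near the threshold without passing it. Ctsb had a log2 fold change of −0.50 ± 0.15 (adjusted p = 0.0581), Scarb2 of −0.40 ± 0.12 (adjusted p = 0.0703) and Ctsk of −1.27 ± 0.41 (adjusted p = 0.083). Without untreated oxalate library 32 all 3 were called, with adjusted p = 0.0122, 0.0162 and 0.0258, and so was Hexa (0.0457). Without alkali-treated oxalate library 33, Ctsb (0.0465) and Scarb2 (0.0165) were called. Without untreated oxalate library 40 the log2 fold changes were smaller, at −0.31 for Ctsb (adjusted p = 0.150), −0.30 for Scarb2 (0.180), −0.71 for Ctsk (0.290) and −0.23 for Hexa (0.404). The number of members called depended on single libraries. It was 1 without untreated oxalate library 12, 3 without library 3, 10 without library 32 and 2 without library 40. Among alkali-treated oxalate libraries it was 1 without library 30, 3 without library 5 and 2 without library 8. Fitted to the 10 oxalate libraries alone, no member was called by edgeR, where DESeq2 on all libraries called 8 and limma-voom 5, and the adjusted p of Npc2 was 0.12 and that of Ctss 0.198. In that fit 29 of all genes were called, against 630 with all 20 libraries.

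Macrophage markers moved with these genes. Their summed level was 378 to 1237 CPM in alkali-treated oxalate libraries and 939 to 3661 CPM in untreated oxalate libraries, and 4 of 19 were called lower with alkali and none higher. Of the 13 members raised in untreated oxalate, 11 had their lowest alkali-treated value in library 2, which also had the lowest macrophage sum of that group and the highest proximal tubule sum, 54792 CPM. Library 33, with the highest macrophage sum, was the lowest of its group for 7 of the 8 fallen members. Proximal tubule markers showed no call in either direction, with sums of 24215 to 54792 CPM in alkali-treated oxalate and 19492 to 51055 CPM in untreated oxalate libraries. Acp5, tartrate-resistant acid phosphatase, which makes up most of the giant cell marker sum, fell with alkali (log2 fold change −0.30 ± 0.07, adjusted p = 0.0283), as did Dcstamp (−2.08 ± 0.58) and Itgb3 (−0.99 ± 0.26), so that 3 of 5 tested giant cell markers were called lower. Acp5 had 44.5 to 58.0 CPM in alkali-treated oxalate and 62.7 to 69.8 CPM in untreated oxalate libraries. The latter lay near the 55.5 to 69.0 CPM of untreated control libraries, so its level did not follow that of Dcstamp. Of 8 tubular injury markers 4 were called lower (Havcr1, Vcam1, Krt8 and Sox9), with injury sums of 1697 to 4675 CPM in alkali-treated oxalate and 3260 to 5407 CPM in untreated oxalate libraries. Of 8 T and NK cell markers 1 was called lower. The part of these cells in the alkali difference was not tested.

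In control mice no difference between alkali-treated and untreated libraries passed the test for any lysosomal gene. None of the 39 members was called by edgeR, limma-voom or DESeq2, and at unadjusted p under 0.05 the count was also 0. Across all genes edgeR called 0 (0% higher and 0% lower), 389 had an unadjusted p under 0.05, and DESeq2 called 3. The largest member change was that of Gusb, beta-glucuronidase, at −0.33 ± 0.19, with 64.5 ± 8.69 CPM in alkali-treated control libraries and 80.9 ± 25.0 CPM in untreated control libraries (SD, n = 5 each). Ctss had 11.9 ± 2.82 CPM with alkali and 12.1 ± 2.76 CPM without (SD, n = 5 each).

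The interaction asks whether the difference between alkali-treated and untreated libraries was unlike in oxalate and in control mice. No member was called by edgeR, limma-voom or DESeq2, although 8 had an unadjusted p under 0.05, and the smallest adjusted p was 0.423, for Gla (log2 difference −1.0 ± 0.29). Ctss had a log2 difference of −1.56 ± 0.56, Ctsb of −0.61 ± 0.21 and Npc2 of −0.48 ± 0.15 (adjusted p = 0.478, 0.474 and 0.474). Over all genes edgeR called 0 (0% in each direction), 1429 had an unadjusted p under 0.05 and DESeq2 called 15. The alkali difference in oxalate mice is thus not shown to differ from that in control mice for any member.

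Genes around the listed ones were read from further lists of the same organelle, whose counts stand against 26.4% higher and 23.1% lower among all genes in untreated oxalate. Of 5 tested inhibitors of cathepsins all were called higher in untreated oxalate against untreated control libraries. Serpina3g, an intracellular serpin that blocks cysteine cathepsins, rose by 3.16 ± 0.35 on the log2 scale, and the cystatins Cst3 and Cstb by 0.83 ± 0.11 and 0.73 ± 0.10. With alkali in oxalate mice, Cstb was lower (−0.52 ± 0.10, adjusted p = 0.0061), the only call among these inhibitors. The other 6 listed inhibitors, Cst6 and genes of the stefin A group, did not pass the filter on low counts.

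Of 27 genes listed as other lysosomal hydrolases, 6 were called higher (22.2%) and 10 lower (37%) in untreated oxalate against untreated control libraries, with a median of −0.13. Pla2g15, the lysosomal phospholipase A2, rose by 1.42 ± 0.20, and Pld3, a nuclease of endolysosomes, by 0.98 ± 0.18. Gnptab, on the same list although it is a Golgi enzyme that starts the mannose 6-phosphate tag and not a hydrolase, rose by 0.31 ± 0.06. Galc, galactosylceramidase, fell by 0.55 ± 0.12. In oxalate mice on alkali, Dpp7 (0.45 ± 0.11, adjusted p = 0.0255) and Sgsh, a sulfatase of heparan sulfate degradation (0.35 ± 0.10, adjusted p = 0.043), were higher than in untreated oxalate mice, and Acp5 was lower.

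Of 20 other membrane proteins and transporters tested, 5 were higher and 5 lower (25% each) in untreated oxalate against untreated control libraries, close to the shares of all genes. Cd68, a Lamp family protein of macrophages, which also counts among the macrophage markers, rose by 4.72 ± 0.52, and Laptm5, a lysosomal protein of blood cells, by 3.13 ± 0.32. Mfsd12, a cysteine importer of lysosomes and melanosomes, rose by 1.62 ± 0.20, and with alkali in oxalate mice its log2 fold change was −0.96 ± 0.20 (adjusted p = 0.0117). Slc29a3, a nucleoside transporter, had the reverse pair of calls, −0.69 ± 0.13 in untreated oxalate against untreated control libraries and 0.47 ± 0.13 (adjusted p = 0.0467) with alkali in oxalate mice. These 2 contrasts share the untreated oxalate libraries.

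The genes that deliver hydrolases, acidify the organelle and feed it had list medians between −0.24 and −0.10 with TMM, below the all-gene median of 0.00. On total counts these medians were between 0.06 and 0.20, also below the all-gene median, which was 0.30 there. Of 20 sorting receptors and adaptors, 2 were higher (10%) and 8 lower (40%) in untreated oxalate libraries, with M6pr, the cation-dependent mannose 6-phosphate receptor, at −0.40 ± 0.09 and Ap1g1, a subunit of the AP-1 adaptor, at −0.42 ± 0.09. Of 23 V-ATPase subunits, 3 were higher (13%) and 7 lower (30.4%). The 2 with the smallest p were higher, Tcirg1, the a3 subunit of osteoclasts and macrophages, 2.82-fold and Atp6v0d2, a subunit of osteoclasts and intercalated cells, 2.34-fold. Of 29 autophagy genes, none was higher and 13 were lower (44.8%), with the cargo receptor Nbr1 and the phagophore protein Wipi2 each at −0.50 ± 0.09. On total counts 9 autophagy genes were higher and 3 lower, and no sorting or V-ATPase gene was lower. Of 20 genes of nutrient sensing and TFEB control, 3 were higher (15%) and 7 lower (35%): Mtor, the kinase that keeps TFEB out of the nucleus, was at −1.19 ± 0.20 and Tfe3, a TFEB relative, at 0.41 ± 0.09.

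On alkali, oxalate against control, 23.4% of all genes were called higher and 17.1% lower. The same lists gave 4 higher (14.8%) and 10 lower (37%) of the 27 hydrolases and 4 higher (17.4%) and 10 lower (43.5%) of the 23 V-ATPase subunits. Of the 29 autophagy genes 1 was higher (3.45%) and 11 were lower (37.9%). On total counts, where most calls over all genes were higher in this comparison, the V-ATPase split was 9 higher and 1 lower and the autophagy split 5 higher and 4 lower. Against untreated oxalate libraries, alkali-treated oxalate libraries showed no call among V-ATPase or autophagy genes by edgeR, and on total counts 1 V-ATPase gene was lower. Vps33a, a subunit of the HOPS tethering complex (0.21 ± 0.06, adjusted p = 0.043), was higher, and Lamtor5, a part of the Ragulator scaffold (−0.39 ± 0.10, adjusted p = 0.0267), was lower.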

How the data were processed

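Sequencing libraries were made with a stranded poly(A) kit (TruSeq), per the labels' protocols. The files hold raw read counts per Ensembl mouse gene, and the submitters' processing notes name bcl2fastq 2.19, Trimmomatic, STAR 2.7.1, featureCounts and edgeR for the deposited counts. These notes also name the build GRCh38.p5, a human assembly, although the identifiers are mouse genes; the annotation and strand setting are not given in the sources used here. Symbols, exon lengths and gene positions came from GENCODE M21 (GRCm38), which matched 25587 of 25700 identifiers. The 113 unmatched identifiers held at most 0.0541% of a library's counts.

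All 20 libraries entered 1 model with a mean per group in edgeR 4.0.16 (R 4.3.3). Genes under edgeR's expression filter (minimum count 10) were removed, 10270 of them, and 15430 were tested with TMM scaling and the quasi-likelihood test, with Benjamini-Hochberg adjusted p under 0.05 over all tested genes as the call. Standard errors are the absolute log2 fold change divided by the square root of F. Each library counted as 1 sample. A chi-square test found every pair of replicate libraries to differ beyond sampling noise. At this depth such a result cannot tell separate animals from repeats of 1 animal. The scripts were tested on simulated data.

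Alternatives were DESeq2 1.42.0, limma-voom (limma 3.58.1), other size factors, total counts, no filter, fits of only the 2 groups compared and each library left out. Members and lists were chosen with earlier results of these data known. Every member is described, and from each other list up to 4 genes with the smallest p in each of 2 comparisons could be named, oxalate against control without alkali and alkali against untreated in oxalate mice.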

Additional observations from a re-analysis of the deposited data

Results flagged for a closer look

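In 8 of 164 groups of 5 libraries, 1 library lay far from the other 4 by Dixon's criterion, and chance flags about 1 in 20 groups. Of these, 2 concern untreated oxalate library 40: Gla had 27.6 CPM there, with the next library at 14.2 CPM, and Smpd1 had 52.9 CPM, with the next at 78.8 CPM. Alkali-treated oxalate library 2 was highest for Gusb, at 82.0 CPM against 58.8 CPM in the next library, and lowest for Npc1, at 29.9 CPM against 33.4 CPM. Among alkali-treated control libraries, library 7 was lowest for Psap, at 1968 CPM against 2193 CPM, and for Scarb2, at 48.3 CPM against 55.0 CPM. Library 27 of that group was lowest for Naglu, at 45.8 CPM against 52.1 CPM, and library 4 was highest for Mitf, at 19.1 CPM against 16.0 CPM.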

How the results depend on the processing

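No paired analysis was possible because no replicate number is shared between groups. The counts of members called in oxalate against control without alkali stayed within 1.5 times of 21 in every alternative. Under total counts, however, Ctsh (0.030), Ctsl (0.26) and Ppt1 (0.18) reversed, all below the all-gene median of 0.30 there. On total counts the summed member level averaged 14385 CPM in untreated oxalate and 10612 CPM in untreated control libraries. TMM gave 12827 and 11753 CPM. Depth did not limit the members, whose lowest count in a library was 46.

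For alkali against untreated in oxalate mice, the 6 members called became 3 with total counts, 2 with no filter, 0 with only the 2 groups compared, and 1 to 10 with 1 library left out, and the cause was not tested. The 630 genes called became 1198 with DESeq2, 29 with only the 2 groups, 1263 without the Adipoq libraries, and 185 to 1160 with 1 library left out. In control mice the count of 0 became 3 with DESeq2 and 0 to 1 with 1 library left out. For oxalate against control on alkali, 16 members became 5 and 6237 genes became 3219 without the Adipoq libraries, a setting chosen after seeing the data, and 11 to 21 members were called with 1 library left out. The interaction count of 0 became 15 with DESeq2, 1 without the Adipoq libraries and 0 to 3 with 1 library left out. The 11 members with CACGTG in a promoter became 4 with TCACGTGA.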
